A study of Mus musculus with 35 samples.

Results

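The genes described here are 10 matrix metalloproteinases of the mouse, chosen by name: Mmp2, Mmp3, Mmp9, Mmp10, Mmp11, Mmp13, Mmp14, Mmp16, Mmp19 and Mmp23. Each had 1 row in all 4 deposited tables, which list 55487 genes. The study asked what the micropeptide IAMP, encoded by 4930523C07Rik, does in cardiac fibroblasts (CFs). Primary CFs from adult mice received a nontargeting siRNA (Scrambled) or 1 of 2 siRNAs against IAMP (siR-1, siR-2), with no stimulus, with IL-17 or with TGF-β, which gave 9 groups of 3 libraries. IL-17 was added for 24 h after 24 h of siRNA. A second experiment sequenced whole hearts of C57BL/6 mice at 8 weeks, 4 heterozygous (HET) and 4 knockout (KO) for a CRISPR-Cas9 frameshift in IAMP. The frameshift is meant to remove the peptide and not the transcript, so the transcript level does not check the heart labels. Nothing in the labels says that the 3 libraries of a CF group came from separate cultures or animals, so the tests measure the spread between these libraries, which may be technical.

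Matrix metalloproteinases are zinc-dependent endopeptidases that cut extracellular matrix proteins, growth factors and one another. They are made as inactive proenzymes, are switched on by removal of a propeptide, and are held in check by the tissue inhibitors of metalloproteinases (TIMPs). In the heart, fibroblasts are a main source of several of them, and the enzymes take part in scar formation and remodeling after injury. Mmp3 and Mmp10 are stromelysins, with fibronectin, laminin and proteoglycans among their substrates. Mmp13 is a collagenase that cuts fibrillar collagen, and Mmp2 and Mmp9 are the gelatinases. Mmp14 and Mmp16 are anchored in the membrane and can activate proMmp2.

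Mmp13, Mmp3 and Mmp10 lie in a cluster of 10 metalloproteinase genes on chromosome 9 (GRCm38, 7272514 to 7699585), which spans 427 kb. Mmp13 occupies 7272514 to 7283331, Mmp3 occupies 7445822 to 7455975 and Mmp10 occupies 7502352 to 7510240, all on the plus strand. The 250 bases before the RefSeq start site of these 3 genes (GRCm38.p6) are shown because Mmp3 and Mmp13 carry the main finding and Mmp10 is their neighbor. The capitals mark the AP-1 motif, spelled TGANTCA.
Mmp3 (chr9:7445572-7445821, plus strand): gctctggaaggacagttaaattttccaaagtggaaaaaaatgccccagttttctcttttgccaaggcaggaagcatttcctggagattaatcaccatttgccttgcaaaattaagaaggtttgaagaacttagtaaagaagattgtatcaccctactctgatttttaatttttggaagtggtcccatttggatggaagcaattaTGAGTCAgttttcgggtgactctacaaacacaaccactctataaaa
Mmp13 (chr9:7272264-7272513, plus strand): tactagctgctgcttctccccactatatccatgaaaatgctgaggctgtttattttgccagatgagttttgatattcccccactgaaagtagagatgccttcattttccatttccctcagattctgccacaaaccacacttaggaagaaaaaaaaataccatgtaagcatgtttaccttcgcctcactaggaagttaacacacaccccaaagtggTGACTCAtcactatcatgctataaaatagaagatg
Mmp10 (chr9:7502092-7502341, plus strand): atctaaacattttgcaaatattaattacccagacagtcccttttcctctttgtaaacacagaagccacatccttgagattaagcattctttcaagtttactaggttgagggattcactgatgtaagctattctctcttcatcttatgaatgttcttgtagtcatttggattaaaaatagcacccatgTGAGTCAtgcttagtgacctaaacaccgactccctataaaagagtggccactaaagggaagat
Each of the 3 holds 1 such match, which starts 46 bases before the start site in Mmp3, 35 in Mmp13 and 63 in Mmp10. In the RefSeq windows of 300 bases (250 before to 50 after the start), searched on both strands, 7.81% of 32851 windows hold TGANTCA. Of the cluster's 10 genes 8 hold it, with Mmp8 and Mmp27 as the exceptions, and none of the 8 metalloproteinase genes elsewhere that have a window does. This count is by gene, with any window of the gene enough, whereas the share above is by window. Mmp12 and Mmp7 each have a window with the motif and another without it. The same 3 windows also hold the letters TATAAA on the plus strand, found in 8.32% of windows. AGGAAG, the PEA3 motif, occurs in Mmp3 and Mmp13 and in 35.4% of windows. TTGCNNAA, the C/EBP motif, occurs in Mmp3 and Mmp10 and in 10.8% of windows. ACGTG, the hypoxia response element core, occurs in none of these 3 and in 19.6% of windows. The NF-κB motif occurs in none of them and in 8.46% of windows. No match overlapped another in these 3 windows. Windows were matched for 6 of the 10 genes, not for Mmp2, Mmp9, Mmp16 and Mmp19. A match describes the letters and does not show that a factor binds.

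The CF libraries held 104139670 to 119232309 estimated counts each, on a scale where 1 read pair was worth about 6, and the heart libraries held 23497027 to 23857313 counts. Values below are CPM, counts scaled to a common library total, normalized with trimmed-mean factors across all 27 CF libraries, and separately across the 8 hearts. 4930523C07Rik stood at 22.045 to 25.7 CPM in untreated Scrambled CFs, 2.52 to 3.51 under siR-1 and 1.77 to 1.89 under siR-2. With IL-17 the 3 groups ranged over 16.8 to 20.8, 2.37 to 2.90 and 1.68 to 1.88 CPM, and with TGF-β over 19.1 to 22.6, 4.01 to 4.58 and 2.88 to 3.72 CPM. In hearts it was 15.9 to 18.8 CPM in HET and 15.2 to 17.3 in KO. The 6 fibroblast markers (Col1a1, Col1a2, Dcn, Lum, Pdgfra and Tcf21) were all present in CFs and summed to 7839 to 16431 CPM per library, against 514 to 781 CPM in hearts.

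Levels of different genes are compared only per length, as CPM per kb of exons. In untreated Scrambled CFs Mmp3 was the highest of the 10 at 219 ± 17.6 CPM per kb (SD, n = 3), followed by Mmp2 at 131 ± 6.68 and Mmp14 at 90.0 ± 3.37. Mmp23, a small membrane-bound member, reached 18.5 ± 1.74 CPM per kb and Mmp19 8.47 ± 0.614. Mmp11, a stromelysin activated inside the cell by furin, stood at 4.26 ± 0.512 and Mmp16 at 3.78 ± 0.262, and these 2 were the only neighbors in the order whose libraries overlapped. Mmp10 at 2.24 ± 0.178, Mmp13 at 0.810 ± 0.213 and Mmp9 at 0.0455 ± 0.00749 closed the order. So Mmp3 and Mmp13, which share the chromosome 9 cluster, stood near opposite ends of it. With the length of the longest transcript in place of all exons, Mmp14 stood at 166 CPM per kb, above Mmp2 at 143.

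**Figure D1:**
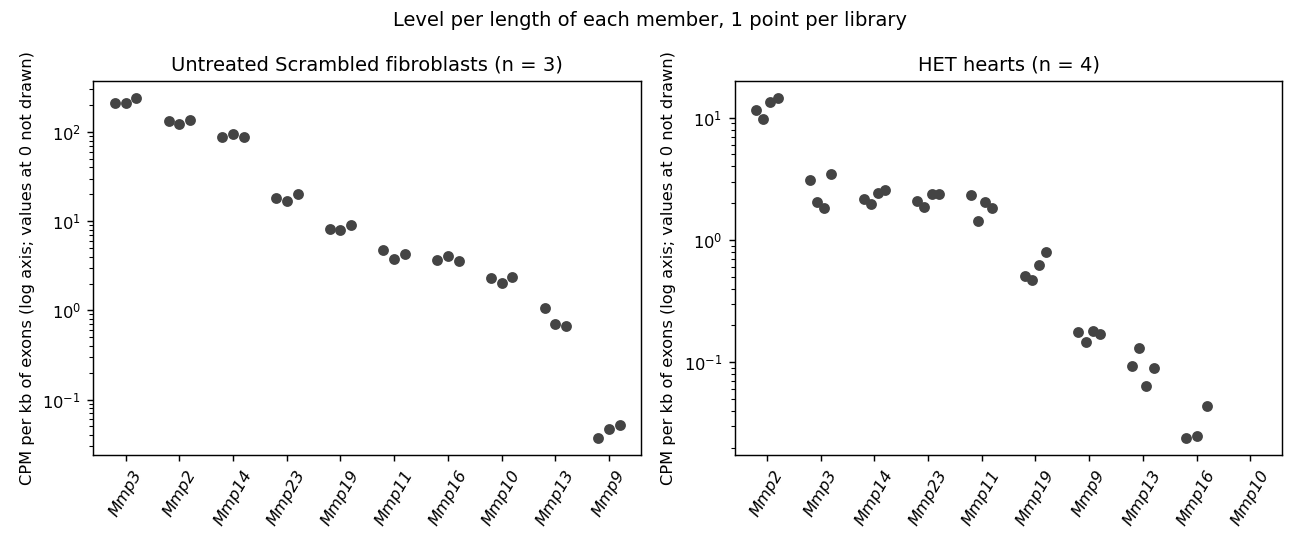
Level of each of the 10 genes in CPM per kb of exons (log axis), 1 point per library, in the 3 untreated Scrambled CF libraries (left) and the 4 HET hearts (right), ordered by the mean. Mmp3 leads in CFs at 219 CPM per kb and Mmp2 leads in hearts at 12.3, and values of 0 are not drawn.

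The first comparison asked what IAMP knockdown does to these genes in unstimulated CFs. Mmp3 and Mmp13 rose with both siRNAs, and no other of the 10 was called. A gene is called here when its adjusted p is at most 0.05 and its change is at least 2-fold (a log2 fold change of 1), or at least 1.5-fold for siRNA comparisons within the IL-17 and TGF-β tables. With siR-1, 2 of 10 were called higher, against 2.17% of all 19669 genes tested, and 0 lower, against 2.56%. With siR-2, 2 of 10 were called higher, against 3.59%, and 0 lower, against 7.04%. By adjusted p alone, 5 of 10 passed under siR-1, against 39.7% of all genes, and 8 of 10 under siR-2, against 49.6%. The median log2 fold change of the 10 was 0.34 under siR-1 and 0.26 under siR-2, and that of all genes was -0.010 and -0.00088. Mmp3 is among the genes that the study itself singled out from these untreated libraries, so its rise there is not independent evidence.

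Mmp3 was measured at 377, 377 and 432 CPM in the 3 untreated Scrambled libraries. It was 1388, 1318 and 1429 CPM under siR-1, and 1525, 1467 and 1679.8 under siR-2. Every knockdown library was above every Scrambled library. The log2 fold change was 1.80 ± 0.06 (SE) under siR-1 (edgeR adjusted p = 1.52e-09) and 1.98 ± 0.06 under siR-2 (adjusted p = 2.79e-10), 3.49 and 3.94 times the Scrambled mean.

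Mmp13 was measured at 2.82, 1.87 and 1.80 CPM in untreated Scrambled CFs. It was 6.05, 5.09 and 7.41 CPM under siR-1 and 7.44, 7.02 and 6.51 under siR-2, again with no overlap with Scrambled. Its log2 fold change was 1.51 ± 0.17 (adjusted p = 1.54e-06) and 1.69 ± 0.17 (adjusted p = 2.18e-07).

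**Figure D2:**
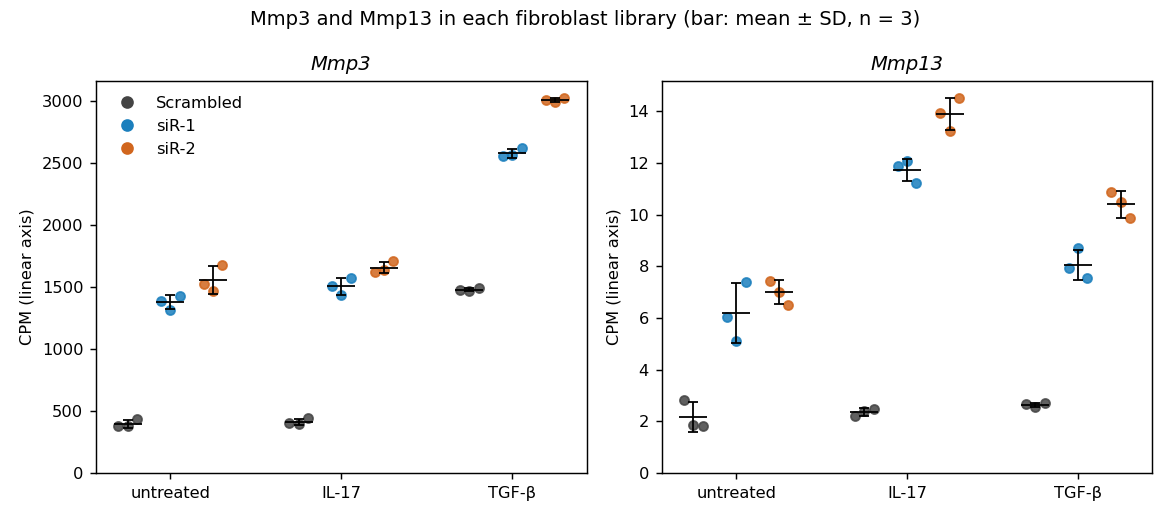
CPM of Mmp3 (left) and Mmp13 (right) in every CF library (linear axis), by siRNA and stimulus, with bars for the mean ± SD of 3 libraries. In all 3 conditions the siR-1 and siR-2 points lie above the Scrambled points, Mmp3 is highest with TGF-β, up to 3029 CPM, and Mmp13 is highest with IL-17, up to 14.5 CPM.

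Several of the other genes differed between the siRNAs. The membrane enzymes Mmp14 and Mmp16 and the secreted Mmp19 were higher under siR-1 by 0.30 ± 0.03, 0.63 ± 0.05 and 0.83 ± 0.05 on the log2 scale, all with adjusted p at or below 1.32e-06. With siR-2, Mmp16 and Mmp19 were higher by 0.16 ± 0.05 and 0.35 ± 0.05, whereas Mmp14 was lower (-0.12 ± 0.03). Mmp2 and Mmp23 were lower under siR-2 (-0.58 ± 0.04 and -0.82 ± 0.07, adjusted p = 5.5e-09 and 5.32e-08) and stood at -0.08 ± 0.04 and -0.07 ± 0.07 under siR-1, which did not pass. Mmp2 ranged over 415 to 457 CPM in Scrambled CFs and 290 to 304 under siR-2. Mmp23 ranged over 39.3 to 47.5 and 22.5 to 26.97 CPM, and neither gene's groups overlapped. Tested directly, siR-2 against siR-1 called 0 of 10, against 6.57% of all genes in either direction, and 6 of 10 passed by adjusted p alone, against 45.5%. These were Mmp2 (-0.50 ± 0.04), Mmp14 (-0.42 ± 0.03), Mmp16 (-0.47 ± 0.05), Mmp19 (-0.48 ± 0.05) and Mmp23 (-0.75 ± 0.07), all lower under siR-2, and Mmp3 (0.18 ± 0.06, adjusted p = 0.0384), which was higher. Mmp10 was higher under siR-2 (0.59 ± 0.16, adjusted p = 0.00591) and missed the threshold under siR-1 (0.38 ± 0.16, adjusted p = 0.0742). The siR-2 difference of Mmp10 no longer passed without siR-2 replicate 1 (adjusted p = 0.0549), and that of Mmp16 without siR-2 replicate 2, Scrambled replicate 1 or Scrambled replicate 3 (adjusted p up to 0.0856). The difference of Mmp3 between the siRNAs did not pass without siR-2 replicate 1 or 3 or siR-1 replicate 1 or 2 (adjusted p up to 0.122) or in DESeq2. Mmp9, with only 16, 20 and 23 estimated counts in the Scrambled libraries, lay around the floor of 18 (3 read pairs), and no difference was detectable at this depth (-0.0076 ± 0.69 for siR-1, 0.45 ± 0.69 for siR-2). Mmp11 stood at -0.05 ± 0.09 and -0.15 ± 0.09, neither of which passed. Between the siRNAs, the differences of Mmp9 (0.46 ± 0.69), Mmp10 (0.20 ± 0.16), Mmp11 (-0.10 ± 0.09) and Mmp13 (0.18 ± 0.16) did not pass. Of the exon sequence of Mmp19, 21.9% of all 100-base stretches also occur in transcripts of Gm47093 or Tmem198b, and the strand setting of the counting is not given in the sources used here, so its counts are uncertain.

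**Figure D3:**
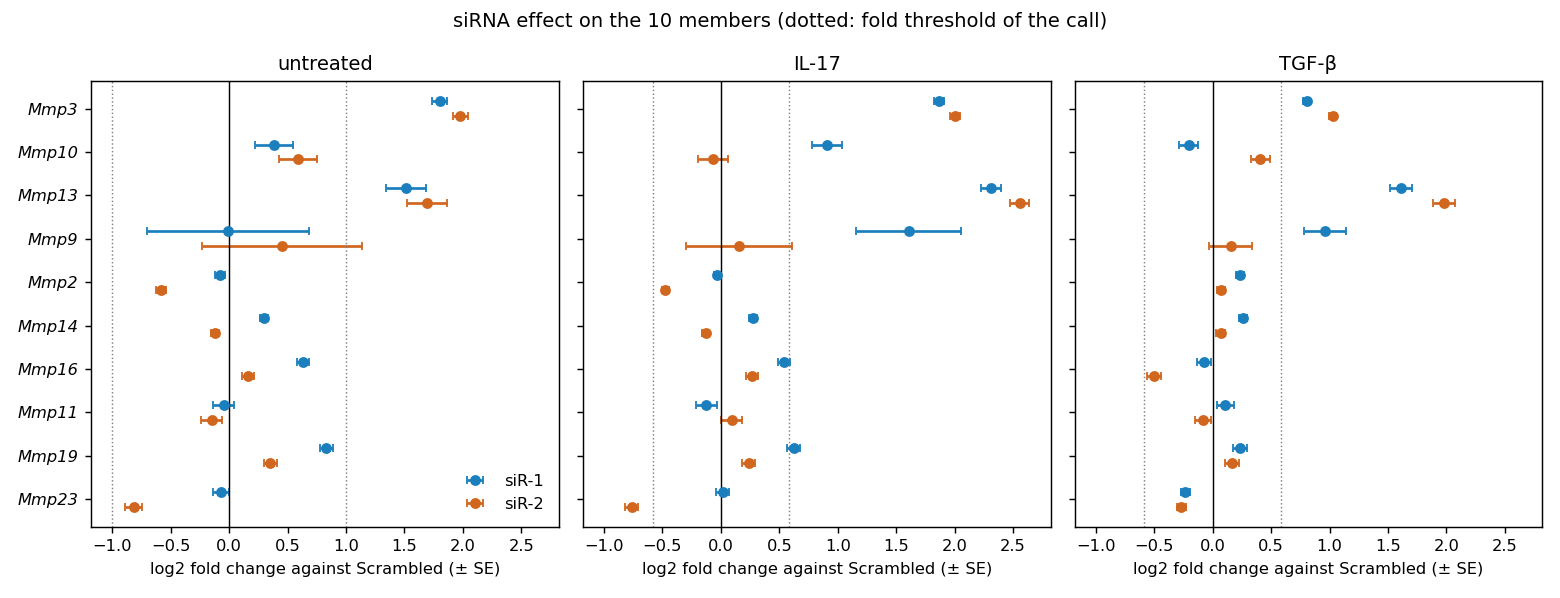
Log2 fold change of each of the 10 genes against Scrambled (point ± SE) for siR-1 and siR-2, in untreated, IL-17 and TGF-β CFs, with dotted lines at the fold threshold of each table. Mmp3 and Mmp13 lie past it on the right with both siRNAs in each condition, and Mmp2 and Mmp23 separate the siRNAs in the first 2 panels.

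Markers of other cell types also moved with the siRNAs. The 6 macrophage markers summed to 55.0 to 59.0 CPM in untreated Scrambled CFs, 56.9 to 60.3 under siR-1 and 73.4 to 76.6 under siR-2. Of these, 1 of 6 (Csf1r) was called higher under siR-2, against 3.59% of all genes. The 5 cardiomyocyte markers summed to 89.9 to 97.8, 41.8 to 46.8 and 27.5 to 32.7 CPM. Nearly all of that was Tnnt2, at 93.4, 44.4 and 30.0 CPM. Myh6 was at 0 in every untreated Scrambled and siR-2 library and was detected under siR-1. Myl2 was at 0 in every untreated siR-1 and siR-2 library and was detected in Scrambled. The 5 smooth muscle markers summed to 160 to 165, 87.2 to 92.7 and 69.5 to 74.1 CPM, and the 5 endothelial markers to 55.6 to 59.9, 50.4 to 52.2 and 58.3 to 59.5. In bulk samples, fewer cells of a type and less RNA per cell cannot be told apart. The part of these shifts in the metalloproteinase differences was not tested.

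IL-17 by itself gave no call among the 10. In Scrambled CFs 0 of 10 were called higher with IL-17, against 1.09% of all genes, and 0 lower, against 0.292%. Only Mmp11 passed by adjusted p (-0.37 ± 0.09, adjusted p = 0.00662), against 13.3% of all genes, and it did not pass without Scrambled replicate 1 or Scrambled with IL-17 replicate 2 (adjusted p up to 0.0758). Mmp3 was 401, 397 and 442 CPM with IL-17, and its log2 fold change against untreated was 0.06 ± 0.06 (adjusted p = 0.658). Mmp13 was 2.204, 2.41 and 2.47 CPM, a difference of 0.13 ± 0.14 (adjusted p = 0.717). Both overlapped their untreated values. The study itself reports from qPCR that IL-17 raised Mmp3 in primary CFs, which is a separate measurement from these libraries. Mmp9 stood at 1.13 ± 0.54 (adjusted p = 0.206), on few counts. The others did not pass either, with Mmp10 at 0.43 ± 0.16, Mmp23 at -0.15 ± 0.07, Mmp19 at 0.08 ± 0.06, Mmp14 at -0.07 ± 0.03, Mmp2 at -0.06 ± 0.04 and Mmp16 at -0.03 ± 0.05. Stimulus and table cannot be told apart, because each stimulus has a table of its own.

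Mmp3 and Mmp13 again rose with both siRNAs in IL-17, and Mmp9, Mmp10 and Mmp19 rose with siR-1. With siR-1, 5 of 10 were called higher (against 5.74% of all genes) and 0 lower (7.81%), and 7 of 10 passed by adjusted p alone (42.1%). With siR-2, 2 of 10 were called higher (8.55%) and 1 lower (13.1%), and 7 of 10 passed by adjusted p alone (50.7%). Mmp3 was 1510.2, 1435 and 1571 CPM under siR-1 and 1623, 1640.2 and 1708 under siR-2, above all Scrambled libraries. Its log2 fold change was 1.87 ± 0.04 and 2.00 ± 0.04 (adjusted p = 2.81e-15 and 5.48e-16).

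Mmp13 in IL-17 was 11.9, 12.1 and 11.2 CPM under siR-1 and 14.0, 13.3 and 14.5 CPM under siR-2, which is 4.96 and 5.89 times the Scrambled mean. The log2 fold change was 2.31 ± 0.08 and 2.56 ± 0.08 (adjusted p = 7.87e-13 and 7.39e-14). The siRNA effect on Mmp13 was larger with IL-17 than without by 0.80 ± 0.19 under siR-1 (adjusted p = 0.0214) and 0.86 ± 0.19 under siR-2 (adjusted p = 0.0101). Neither reached the 2-fold threshold. The siR-1 difference did not pass (adjusted p up to 0.0918) in the refits without siR-1 replicate 1, siR-1 replicate 2, Scrambled replicate 1, siR-1 with IL-17 replicate 2, or Scrambled with IL-17 replicate 1. No gene of the 10 was called for such a difference under siR-1, against 0.17% of all genes, or under siR-2, against 0.165%. By adjusted p alone it was 1 of 10 with each siRNA, against 2.03% and 1.84%. The corresponding difference for Mmp3 was 0.06 ± 0.09 and 0.03 ± 0.09. Among the others, none of which passed, it ranged from -0.21 ± 0.08 (Mmp19) to 1.62 ± 0.76 (Mmp9) for siR-1 and from -0.66 ± 0.22 (Mmp10) to 0.24 ± 0.13 (Mmp11) for siR-2.

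Mmp9, Mmp10 and Mmp19 rose with siR-1 in IL-17. Mmp9, a gelatinase, was 0.426, 0.358 and 0.279 CPM in Scrambled, 0.739, 1.17 and 1.34 under siR-1, and 0.123, 0.683 and 0.377 under siR-2. The siR-1 libraries were above the others, and the siR-2 libraries spread on either side of Scrambled. The log2 fold change was 1.61 ± 0.45 under siR-1 (adjusted p = 0.00774) and 0.16 ± 0.45 under siR-2 (adjusted p = 0.818). On about 60 read pairs in all against 21, the siR-1 ratio was 3.13, with an exact 95% counting interval of 1.88 to 5.42 that covers counting error only. The macrophage markers, in the same order of groups, summed to 54.4 to 54.8, 62.9 to 68.2 and 74.5 to 83.2 CPM. The smooth muscle markers summed to 148 to 153, 84.2 to 91.5 and 69.3 to 74.7 CPM. For siR-1, 2 of 5 were called lower (7.81% of all genes) and 0 higher (5.74%). For siR-2, 3 of 5 were called lower (13.1%) and 1 higher (8.55%). The part of these shifts in the IL-17 differences was not tested. Mmp10 was 4.57, 5.59 and 5.50 CPM in Scrambled, 11.4, 8.15 and 9.91 under siR-1, and 4.42, 5.64 and 4.86 under siR-2. Its log2 fold change was 0.91 ± 0.13 under siR-1 (adjusted p = 1.51e-05) and -0.07 ± 0.13 under siR-2. Mmp19 was higher by 0.62 ± 0.06 under siR-1 and 0.24 ± 0.06 under siR-2. Mmp23 was the 1 gene called lower, at 24.2, 23.0 and 21.8 CPM under siR-2 against 38.1, 40.9 and 38.0 in Scrambled (-0.76 ± 0.05, adjusted p = 2.35e-09), and stood at 0.014 ± 0.054 for siR-1. By adjusted p alone, Mmp14 was higher for siR-1 and lower for siR-2 (0.28 ± 0.03 and -0.13 ± 0.03), Mmp16 was higher for both (0.54 ± 0.05 and 0.27 ± 0.05), and Mmp2 was lower for siR-2 (-0.48 ± 0.03). Mmp2 stood at -0.03 ± 0.03 for siR-1, and Mmp11 at -0.12 ± 0.09 and 0.09 ± 0.09, none of which passed.

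The siRNAs were compared directly under IL-17 too. siR-2 against siR-1 called 3 of 10, against 15.7% of all genes, and 9 of 10 passed by adjusted p alone, against 46.1%. The called genes were Mmp9 (-1.45 ± 0.45, adjusted p = 0.0129), Mmp10 (-0.98 ± 0.13, adjusted p = 5.37e-06) and Mmp23 (-0.78 ± 0.05, adjusted p = 2.87e-09), all lower under siR-2. Without siR-1 with IL-17 replicate 3, the Mmp9 difference did not pass (adjusted p = 0.0641). By adjusted p alone, Mmp2 (-0.45 ± 0.03), Mmp14 (-0.41 ± 0.03), Mmp16 (-0.27 ± 0.05) and Mmp19 (-0.38 ± 0.06) were lower for siR-2, and Mmp3 (0.14 ± 0.04) and Mmp13 (0.25 ± 0.08) were higher. The Mmp3 difference did not pass without siR-2 with IL-17 replicate 3 or siR-1 with IL-17 replicate 2, nor did that of Mmp13 without replicate 3 of either (adjusted p up to 0.0716). Mmp11 (0.22 ± 0.09) did not pass.

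With TGF-β, Mmp3, Mmp9, Mmp10 and Mmp23 rose in Scrambled CFs. In Scrambled CFs 4 of 10 were called higher with TGF-β than untreated, against 12.5% of all genes, and 0 lower, against 9.02%, and 9 of 10 passed by adjusted p alone, against 57.3%. The median log2 fold change was 0.63 for the 10 and 0.032 for all genes. Mmp3 was 1479, 1467.5 and 1490.5 CPM, 3.74 times its untreated mean (1.90 ± 0.05, adjusted p = 2.54e-19). Mmp10 was 13.1, 11.7 and 12.8 CPM against 3.97, 3.52 and 4.11 (1.70 ± 0.14, adjusted p = 2.69e-10). Mmp23 was 111, 106 and 111 CPM against 42.7, 39.3 and 47.5 (1.34 ± 0.06, adjusted p = 6.92e-15). For all 3 the TGF-β libraries were above every untreated one. Mmp9 was 1.91, 1.62 and 2.06 CPM against 0.132, 0.167 and 0.184 (3.52 ± 0.37, adjusted p = 1.24e-08). On about 102 read pairs against 10, its ratio was 11.3 with an exact 95% counting interval of 5.91 to 24.3. Mmp2 and Mmp11 were higher by 0.45 ± 0.04 and 0.81 ± 0.08, Mmp16 by 0.25 ± 0.06, and Mmp14 and Mmp19 were lower (-0.35 ± 0.04 and -0.18 ± 0.06). The Mmp19 difference did not pass without Scrambled replicate 3 or Scrambled with TGF-β replicate 2 (adjusted p up to 0.0791). Mmp13 was the 1 gene that did not pass (0.29 ± 0.15, adjusted p = 0.101), at 2.65, 2.56 and 2.70 CPM. Without Scrambled replicate 1 its difference passed (0.52, adjusted p = 0.00206).

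The TGF-β libraries also differed from the untreated ones in marker levels. In this comparison 12.5% of all genes were called higher and 9.02% lower, and these shares apply to each marker count here. In Scrambled CFs the macrophage markers summed to 156 to 164 CPM with TGF-β against 55.0 to 59.0 untreated. Of these, 4 of 6 (Adgre1, Cd68, Lyz2 and Itgam) were called higher. The cardiomyocyte markers summed to 4.59 to 5.53 CPM against 89.9 to 97.8, and the fibroblast markers to 13995 to 14591 CPM against 8331 to 8463. The smooth muscle markers summed to 157 to 174 CPM against 160 to 165, with 2 of 5 called higher and a median log2 fold change of 0.97. The endothelial markers summed to 87.4 to 88.7 CPM against 55.6 to 59.9, with 1 of 5 called higher, 1 lower and a median of 0.77. The neutrophil markers summed to 0.127 to 0.173 CPM, and Ly6g, Elane and Retnlg were at 0 in all Scrambled libraries of the 3 conditions. The part of these marker differences in the TGF-β differences was not tested, and stimulus and table cannot be told apart here.

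Mmp3 and Mmp13 rose with both siRNAs under TGF-β as well. With siR-1, 3 of 10 were called higher (against 2.43% of all genes) and 0 lower (1.92%), and 7 of 10 passed by adjusted p alone (23.1%). With siR-2, 2 of 10 were called higher (2.06%) and 0 lower (5.46%), and 6 of 10 passed by adjusted p alone (29.8%). Mmp3 reached 2555, 2566 and 2620.2 CPM under siR-1 and 3013, 2991 and 3029 under siR-2. Its log2 fold change was 0.80 ± 0.03 and 1.03 ± 0.03 (adjusted p = 8.17e-12 and 2.6e-13). Mmp13 was 7.93, 8.69 and 7.56 CPM under siR-1 and 10.9, 10.5 and 9.85 under siR-2, above the Scrambled libraries. Its log2 fold change was 1.61 ± 0.10 and 1.98 ± 0.10 (adjusted p = 2.14e-09 and 9.27e-11). Mmp9 was called under siR-1, at 3.43, 3.44 and 4.01 CPM (0.96 ± 0.18, adjusted p = 0.000862), and stood at 2.01, 1.57 and 2.64 CPM under siR-2 (0.15 ± 0.18, adjusted p = 0.611). By adjusted p alone, Mmp2 (0.23 ± 0.03), Mmp14 (0.26 ± 0.04) and Mmp19 (0.23 ± 0.06) were higher and Mmp23 (-0.23 ± 0.04) lower for siR-1. For siR-2, Mmp10 (0.41 ± 0.08) and Mmp19 (0.16 ± 0.06) were higher and Mmp16 (-0.50 ± 0.06) and Mmp23 (-0.27 ± 0.04) lower. The Mmp19 difference for siR-2 did not pass in 7 of 9 refits, all but those without siR-2 with TGF-β replicate 1 or Scrambled with TGF-β replicate 3 (adjusted p up to 0.174). Mmp10 and Mmp16 for siR-1 (-0.21 ± 0.08 and -0.07 ± 0.06), Mmp2 and Mmp14 for siR-2 (0.07 ± 0.03 and 0.07 ± 0.04) and Mmp11 for both (0.11 ± 0.07 and -0.08 ± 0.07) did not pass. The macrophage markers summed to 156 to 164 CPM in Scrambled, 125 to 140 for siR-1 and 140 to 147 for siR-2. Of these, 1 of 6 was called lower for siR-1, against 1.92% of all genes. The smooth muscle markers summed to 157 to 174, 110 to 116 and 111 to 116 CPM. Of these, 1 of 5 was called lower for siR-1 (1.92% of all genes) and 2 of 5 for siR-2 (5.46%). The part of these shifts in the TGF-β siRNA differences was not tested.

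The Mmp3 effect was smaller with TGF-β on the log scale. The siRNA effect on Mmp3 differed from that in untreated CFs by -0.999 ± 0.067 under siR-1 and -0.95 ± 0.07 under siR-2 (adjusted p = 2.86e-10 and 1.88e-10). For Mmp13 the difference was 0.10 ± 0.20 and 0.29 ± 0.20, which did not pass. Mmp16, higher under siR-1 in untreated CFs, stood at -0.07 ± 0.06 under siR-1 in TGF-β, a difference of -0.70 ± 0.08. With siR-2 it was lower by adjusted p in TGF-β (-0.50 ± 0.06), a difference of -0.67 ± 0.08. Mmp2, lower under siR-2 when untreated, stood at 0.07 ± 0.03 under TGF-β, a difference of 0.65 ± 0.06 (adjusted p = 2.08e-09), and differed by 0.31 ± 0.06 for siR-1. Mmp10 (-0.59 ± 0.19) and Mmp19 (-0.60 ± 0.08) also passed for siR-1, and Mmp14 (0.19 ± 0.05) and Mmp23 (0.55 ± 0.09) for siR-2. Those that did not pass were Mmp9 (0.97 ± 0.52), Mmp11 (0.16 ± 0.12), Mmp14 (-0.04 ± 0.05) and Mmp23 (-0.17 ± 0.09) for siR-1, and Mmp9 (-0.30 ± 0.50), Mmp10 (-0.18 ± 0.19), Mmp11 (0.07 ± 0.12) and Mmp19 (-0.19 ± 0.08) for siR-2. None of the 10 was called for such a difference under siR-1, against 2.36% of all genes, or under siR-2, against 5.08%, and 5 of 10 passed by adjusted p alone with each, against 19.6% and 30.1%. Under TGF-β siR-2 against siR-1 called 2 of 10, against 3.96% of all genes, and 7 of 10 passed by adjusted p alone, against 24%. The called genes here were Mmp9 (-0.81 ± 0.18) and Mmp10 (0.61 ± 0.08), so Mmp10 was higher under siR-2 here and lower in IL-17. Mmp10 fell short of the fold threshold without siR-2 with TGF-β replicate 3. Mmp2 (-0.16 ± 0.03), Mmp14 (-0.19 ± 0.04) and Mmp16 (-0.43 ± 0.06) were lower for siR-2 by adjusted p alone, Mmp3 (0.22 ± 0.03) and Mmp13 (0.37 ± 0.09) were higher, and Mmp11 (-0.19 ± 0.07), Mmp19 (-0.07 ± 0.06) and Mmp23 (-0.03 ± 0.04) did not pass.

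**Figure D4:**
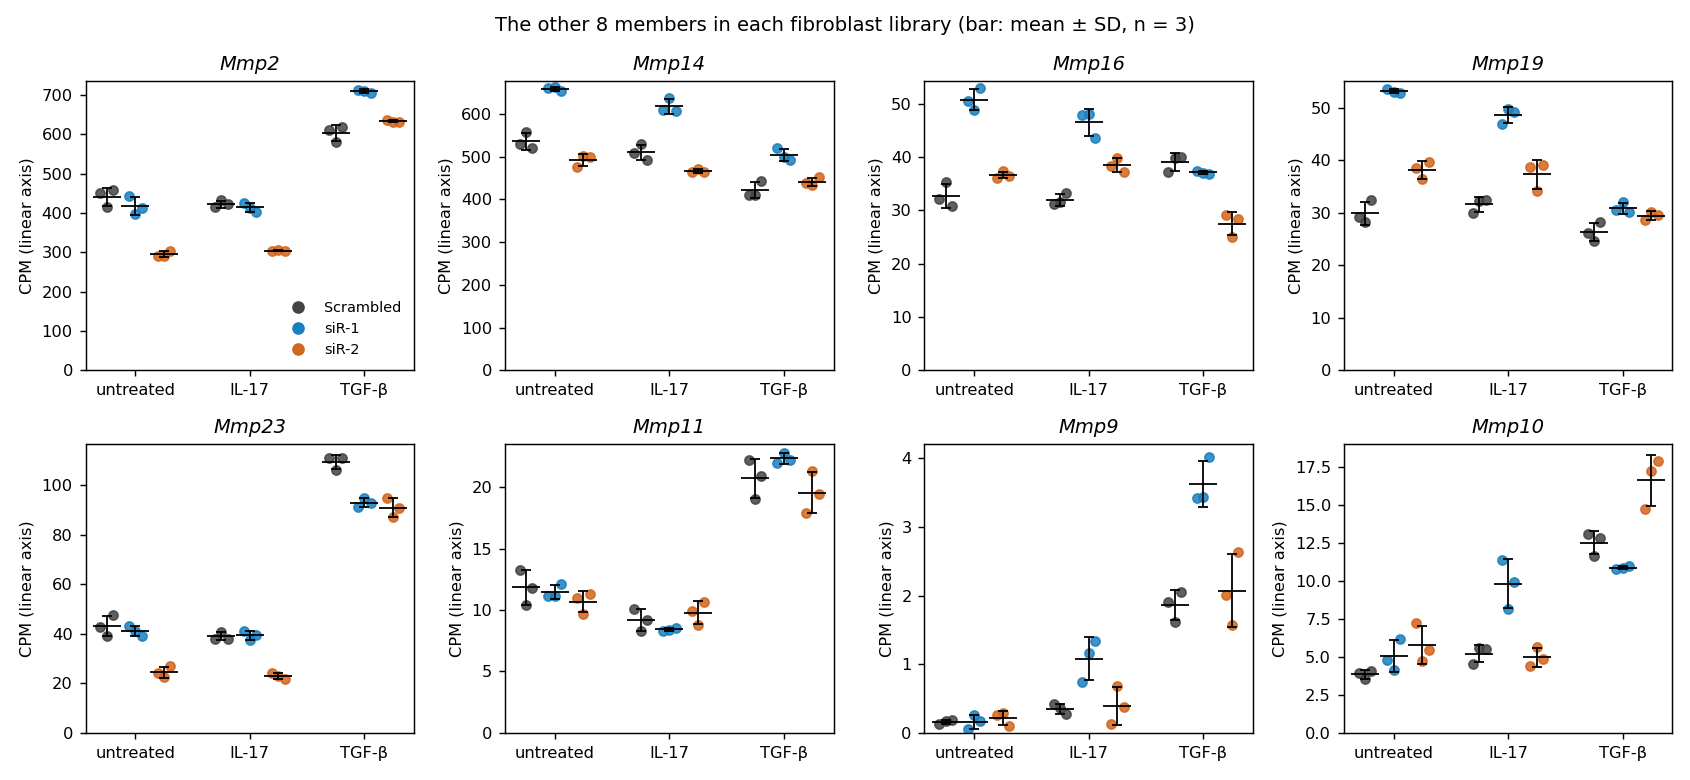
CPM of the other 8 genes in every CF library (linear axis from 0), by siRNA and stimulus, with bars for the mean ± SD of 3 libraries. Mmp2 and Mmp23 are lowest under siR-2 in the untreated and IL-17 panels, Mmp14, Mmp16 and Mmp19 are highest under siR-1 there, and Mmp9, Mmp10, Mmp11 and Mmp23 stand higher with TGF-β.

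The order of the 9 groups differed by gene. Mmp3 had its highest mean in siR-2 with TGF-β (3011 CPM), then siR-1 with TGF-β (2580.4). The next 4 groups, siR-2 with IL-17, siR-2 untreated, siR-1 with IL-17 and Scrambled with TGF-β, overlapped in sequence between 1657 and 1479 CPM. Untreated siR-1 followed at 1378 CPM without overlap, and Scrambled with IL-17 and untreated Scrambled came last and overlapped. Mmp13 had its highest means in siR-2 (13.9 CPM) and siR-1 (11.7) with IL-17, and its 3 Scrambled groups were lowest at 2.64, 2.36 and 2.16 CPM. Mmp14 was highest in untreated siR-1 (660 ± 4.595 CPM) and lowest in Scrambled with TGF-β (421 ± 18.8).

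Genes with the most similar pattern were named by the Pearson correlation of log2(CPM + 0.5) over the 27 CF libraries, with genes averaging under 1 CPM left out. The libraries share their 9 groups, so these values only describe likeness. For Mmp3 they were Hvcn1, a proton channel (r = 0.983), Dnmt3l (0.974) and Ctsl, the lysosomal protease cathepsin L (0.974). For Mmp13 they were Gpc1, a glypican (0.939), Tsku (0.929) and Srxn1, sulfiredoxin (0.928). For Mmp2 they were Ctso (0.984), Pofut1 (0.983) and H2-T22 (0.98), and for Mmp14 Tspan4 (0.97), Tll1 (0.952) and Pcdhb16 (0.95). Among the 10 themselves Mmp2 and Mmp23 were closest (r = 0.971), and Mmp3 and Mmp13 stood at 0.761.

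The chromosome 9 cluster was examined as a whole, since 3 of the 10 genes belong to it. Of its 10 genes 8 were tested. In untreated CFs 5 of the 8 were called higher for siR-1 (2.17% of all genes) and 3 of 8 for siR-2 (3.59%), and 0 were called lower with either (2.56% and 7.04%). These counts include Mmp3 and Mmp13, and without them 3 of 6 were called higher for siR-1 and 1 of 6, Mmp8, for siR-2. Of the 12 metalloproteinase genes tested elsewhere in the genome, 0 were called higher and 2 lower with each siRNA (Mmp15 and Mmp24 for siR-1, Mmp17 and Mmp24 for siR-2, named after their values were seen). The median log2 fold change of the 8 tested cluster genes, Mmp3 and Mmp13 included, was 1.31 under siR-1 and 1.07 under siR-2, against -0.06 and -0.14 elsewhere. In IL-17 6 of 8 cluster genes were called higher with each siRNA (5.74% and 8.55% of all genes), against 2 of 12 elsewhere for siR-1 and 0 of 12 for siR-2. In TGF-β 4 of 8 were called higher with each (2.43% and 2.06%), against 1 of 12 and 0 of 12 elsewhere. Without Mmp3 and Mmp13, 4 of 6 were called higher with each siRNA in IL-17 and 2 of 6 with each in TGF-β.

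Mmp8, collagenase 2, was 0.659 to 1.22 CPM in untreated Scrambled CFs, 3.36 to 4.15 under siR-1 and 3.54 to 4.47 under siR-2. Its log2 fold change was 2.11 ± 0.20 and 2.14 ± 0.20. The 6 neutrophil markers, 0 of which could be tested, summed to at most 0.106 CPM in any untreated CF library, and their part in the Mmp8 difference was not tested. Mmp1b rose under siR-1 from 0.361 to 0.620 CPM to 2.11 to 3.22 (2.43 ± 0.26), and under siR-2 it was 0.99 ± 0.26, past the adjusted p alone. Its exons overlap those of Mmp12 on the opposite strand, and 7.26% of its 100-base stretches also occur in Mmp12 or Mmp1a, so its counts are uncertain. Mmp27 was higher by 1.11 ± 0.15 and 0.96 ± 0.15. Mmp12, macrophage elastase, stood at -0.33 ± 0.13 under siR-1, which did not pass, and 0.64 ± 0.13 under siR-2, beside the macrophage marker sums given above. Mmp1a had 0 to 18 estimated counts per untreated Scrambled library, at or under the floor, and Mmp20 and Mmp7 were too low to test. The 100-base stretches that Mmp3 and Mmp10 share number 5 of 1702 in Mmp3. In hearts Mmp3 was the 1 cluster gene that could be tested.

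**Figure D5:**
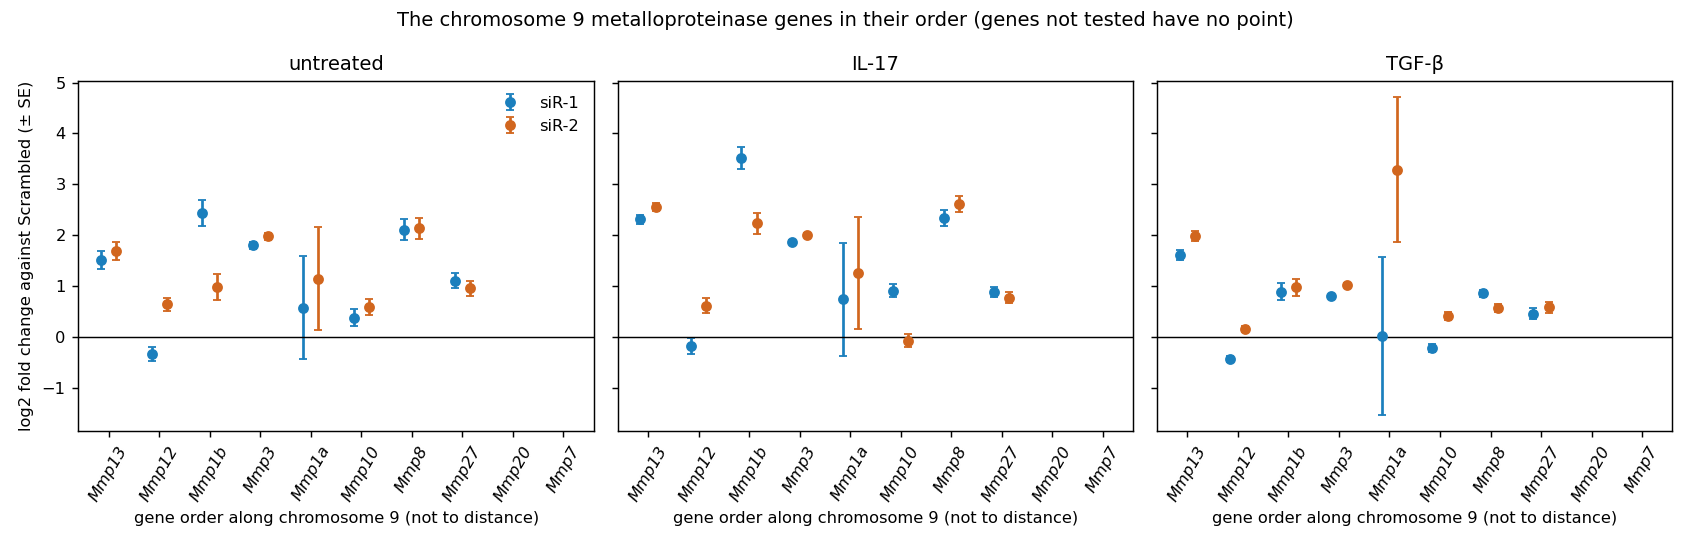
Log2 fold change against Scrambled (point ± SE) of the chromosome 9 metalloproteinase genes in genomic order, for siR-1 and siR-2 in untreated, IL-17 and TGF-β CFs. Mmp13, Mmp1b, Mmp3, Mmp8 and Mmp27 lie above 0 in each panel, the Mmp12 and Mmp10 points lie closer to it or on either side, Mmp1a has wide errors at its low counts, and Mmp20 and Mmp7 have no point.

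Genes that act with these enzymes were followed as fixed lists. Of the 5 inhibitors (Timp1 to Timp4 and Reck), 0 were called higher and 1 (Timp4) lower with each siRNA in untreated CFs, where 2.17% and 3.59% of all genes were called higher and 2.56% and 7.04% lower for siR-1 and siR-2. Median log2 fold changes in this list were -0.30 and -0.03, and the same shares of all genes apply to the next lists. By adjusted p alone, 2 inhibitors were higher and 3 lower under siR-1, and 2 higher and 2 lower under siR-2. That compares with 39.7% and 49.6% of all genes in either direction. Summed, the 5 inhibitors stood at 3379 to 3457 CPM in Scrambled CFs, 3752 to 3824 under siR-1 and 3868 to 4039 under siR-2. Timp3, a matrix-bound inhibitor, was higher by 0.97 ± 0.03 under siR-1 and 0.90 ± 0.03 under siR-2 and passed the fold threshold under IL-17 (1.07 ± 0.03 and 0.97 ± 0.03). Timp4 had 15 to 29 estimated counts in the Scrambled libraries and 0 in all siR-1 libraries, around the floor of 18, so no fold is given. Of the 6 genes of proenzyme activation, 0 were called higher, and 2 were called lower under siR-1 and 1 under siR-2. Plau, the urokinase that generates plasmin, was lower by both (-1.29 ± 0.05 and -1.81 ± 0.05), as was Plat, tissue plasminogen activator (-1.11 ± 0.04 and -0.75 ± 0.04). Of the 8 substrates, 0 were called under siR-1, and 1 was called higher (Col3a1) and 1 lower (Fn1, fibronectin, at -1.29 and named after its value was seen) under siR-2. By adjusted p alone, 6 of the 8 were higher and 0 lower under siR-1, with a median log2 fold change of 0.47. Under siR-2, 2 were higher and 6 lower, with a median of -0.24. Of all genes, 39.7% and 49.6% passed in either direction. Col3a1, a fibrillar collagen, was higher with both by adjusted p (0.97 ± 0.04 and 1.47 ± 0.04). Dcn, the collagen-binding proteoglycan decorin, stood at 0.08 ± 0.04 and 0.96 ± 0.04. With TGF-β alone, Plau and Plat were lower in Scrambled CFs (-3.22 ± 0.06 and -2.71 ± 0.05) and Timp1 was higher (1.48 ± 0.04).

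In whole hearts no difference between KO and HET passed. Of the 10 genes 7 could be tested, and 0 were called in edgeR, as were 0% of all 16675 genes tested, of which 601 had an unadjusted p under 0.05. DESeq2 called 1 gene higher and 1 lower, neither of them among the 10. Per kb, Mmp2 was the highest at 12.3 ± 2.11 CPM in HET hearts (SD, n = 4), and did not overlap the others. Mmp3 (2.60 ± 0.797), Mmp14 (2.28 ± 0.274), Mmp23 (2.18 ± 0.255) and Mmp11 (1.92 ± 0.382) followed, and the libraries of each neighboring pair among these overlapped. Mmp2 ranged over 32.6 to 48.8 CPM in HET and 40.0 to 43.9 in KO (0.01 ± 0.11). Mmp3 was 5.57, 3.66, 3.27 and 6.21 CPM in HET and 2.61, 4.18, 3.94 and 6.17 in KO, which overlap (-0.15 ± 0.28). The widest difference among the 7 was Mmp19 (0.44 ± 0.34), followed by Mmp9 (0.21 ± 0.20) and Mmp23 (0.14 ± 0.12), with Mmp14 at -0.02 ± 0.10 and Mmp11 at 0.01 ± 0.15, and the adjusted p of all 7 was 0.99997. Mmp10, Mmp13 and Mmp16 were too low to test, with at most 9 counts per library. Mmp10 was at 0 in all HET hearts, where the limit of 3 counts per library applies, so absence was not shown. Fibroblast markers summed to 514 to 781 CPM in HET and 661 to 692 in KO, and cardiomyocyte markers to 29389 to 32276 and 28958 to 29980 CPM.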

How the data were processed

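RNA was extracted with Trizol and polyadenylated mRNA was sequenced. Per the labels, the authors used cutadapt, HISAT2 and StringTie on GRCm38, and DESeq2 for their own tests. The CF values were deposited by the authors as estimated counts per gene: genes detected in a single library most often held 6 there, taken here as 1 read pair. The heart values were deposited by the authors as raw counts per gene, with a most frequent single value of 1. Strand setting, annotation release and the step to whole numbers are not given in the sources used here.

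From these, edgeR (4.0.16; R 4.3.3) quasi-likelihood tests were run with robust dispersion, filterByExpr and trimmed-mean factors, all two-sided, with Benjamini-Hochberg adjustment over all genes tested. Each siRNA was compared with Scrambled within a table (9 libraries), and stimuli and effect differences in joint fits of 18 libraries. The floor was 3 read pairs (18 estimated counts in CFs, 3 counts in hearts). Exact intervals cover counting error only. Each of the 10 genes was tested in each CF comparison; values per library are given for those called with both siRNAs in a CF table or with a stimulus, and for Mmp3, Mmp13, Mmp2 and Mmp14 the 3 most similar genes are named. From each fixed list the 2 genes with the largest mean change in untreated CFs are named, and Timp1, Timp4's counts, Fn1, Mmp12 and Mmp27 were added by position or after their values were seen. The genes and lists were chosen with earlier results of these data known, and the study itself had singled out Mmp3 from the untreated libraries. Replicates differed beyond counting noise, so none was merged. Alternatives were DESeq2 (1.42.0), other scaling factors, 2 other filters on low counts, the other fold threshold, fewer libraries in the fit, a replicate block, estimated counts divided by 6, and each library left out. Scripts were tested on simulated data. Of the gene IDs, 55141 were in GENCODE vM21. RefSeq promoter windows came from GRCm38.p6.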

Additional observations from a re-analysis of the deposited data

Results flagged for a closer look

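In KO hearts, Mmp13 had 0.288 CPM (7 counts) in 1 heart and 0 in the other 3, a gap equal to the whole range. The 4 HET hearts had 0.170 to 0.348 CPM. The flag is set so that chance marks about 5% of groups of continuous values. A gene detected in a single heart of its group is always flagged, so that rate does not hold here. Mmp13 was too low to test in hearts.

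For 8 of the 10 genes, the siRNA effect differed by adjusted p between stimulated and untreated CFs in at least 1 direct test, with no difference called at 2-fold. With IL-17 against untreated, the Mmp13 effect was larger by 0.80 (siR-1) and 0.86 (siR-2) on the log2 scale. With TGF-β, the siR-1 effect differed by 0.31 for Mmp2, -0.999 for Mmp3, -0.59 for Mmp10, -0.70 for Mmp16 and -0.60 for Mmp19. The siR-2 effect differed by 0.65 for Mmp2, -0.95 for Mmp3, 0.19 for Mmp14, -0.67 for Mmp16 and 0.55 for Mmp23. The Mmp10 difference missed the threshold in 8 of 18 refits with 1 library left out, namely siR-1 replicate 3, Scrambled replicates 1 and 2, any of the 3 siR-1 replicates with TGF-β, and Scrambled with TGF-β replicates 1 and 3 (adjusted p up to 0.120).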

How the results depend on the processing

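Of 3120 alternative values of 157 single-gene log2 fold changes, 3005 kept their direction and their side of the threshold, 43 no longer passed, 27 passed newly and 45 changed sign, none of the latter with a main value that passed. The calls of Mmp3 and Mmp13 against Scrambled held under each tool, filter and left-out library at the fold threshold of the table. At 1.5-fold, the untreated tables called 4 (siR-1), 4 (siR-2) and 1 (siR-2 against siR-1) of the 10, and the effect differences 1 and 1 with IL-17 and 4 and 3 with TGF-β. The untreated siR-2 calls at 1.5-fold were Mmp3, Mmp10 and Mmp13, all higher, and Mmp23, lower. The siR-2 effect differences with TGF-β were positive for Mmp2 and negative for Mmp3 and Mmp16. At 2-fold, IL-17 called 3 with siR-1, 2 with siR-2 (Mmp23 was lost) and 1 between the siRNAs, and TGF-β called 1 with siR-1 (Mmp13, with Mmp3 and Mmp9 lost) and 0 between the siRNAs. The shares of all genes at these other thresholds are not given here, so these counts show only how the calls moved. Pairing by equal replicate numbers was not seen, as none of 27 correlations of their deviations exceeded 0.1 (-0.167 to 0.0563). Unlike numbers reached 0.211 (siR-2 replicate 1 with siR-1 replicate 3, in TGF-β). With 3 libraries per group this check cannot exclude a shared culture or batch. With the replicate block the TGF-β siR-1 effect difference called 1 gene, Mmp3, and Mmp9 stood at -0.049 under siR-2 in IL-17. No paired analysis was possible in hearts because their columns carry no numbers. With 1 library left out, counts ranged from 0 to 1 for both TGF-β effect differences, from 1 to 2 between the siRNAs in TGF-β, from 2 to 3 between them in IL-17 and from 5 to 6 for siR-1 in IL-17.

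Signs that changed belonged to differences near 0 that did not pass. The IL-17 siR-2 difference of Mmp14 was 0.0014 with RLE factors and 0.00067 with factors from the fit's own libraries. Left-out libraries moved untreated siR-1 values from -0.53 to 0.41 (Mmp9), -0.13 to 0.044 (Mmp11) and -0.13 to 0.0044 (Mmp23). In IL-17 they moved Mmp23 from -0.019 to 0.050 with siR-1, and Mmp9 from -0.50 to 0.58 and Mmp10 from -0.17 to 0.0094 with siR-2. Mmp9 ranged from -0.056 to 0.32 with siR-2 in TGF-β, and Mmp16 from -0.075 to 0.022 for IL-17 alone. The IL-17 siR-1 difference ranged from -0.0053 to 0.11 (Mmp3), -0.054 to 0.0031 (Mmp14) and -0.17 to 0.0048 (Mmp11). The siR-2 one ranged from -0.043 to 0.084 (Mmp3), -0.039 to 0.019 (Mmp14), -0.95 to 0.13 (Mmp9) and -0.019 to 0.13 (Mmp23). The TGF-β differences ranged from -0.14 to 0.25 (Mmp13, siR-1), -0.30 to 0.0062 (Mmp10, siR-2) and -0.022 to 0.15 (Mmp11, siR-2). In hearts, values ranged from -0.39 to 0.023 (Mmp3), -0.084 to 0.10 (Mmp2), -0.088 to 0.050 (Mmp14) and -0.10 to 0.13 (Mmp11). The cause was not tested. With the longest transcript as length, Scrambled CFs had 143 (Mmp2), 166 (Mmp14), 30.1 (Mmp23), 5.17 (Mmp11) and 6.54 (Mmp16) CPM per kb. Depth limited Mmp9 in untreated CFs and Mmp10, Mmp13 and Mmp16 in hearts.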

Other observations

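The 11 AP-1 and ETS factors, families that bind the AP-1 and PEA3 motifs, were followed at the mRNA level. In untreated CFs 0 were called higher with each siRNA, against 2.17% (siR-1) and 3.59% (siR-2) of all genes. With each, 1 was called lower, against 2.56% and 7.04%. The median log2 fold change was -0.25 for siR-1 and -0.07 for siR-2. By adjusted p alone, 3 were higher and 6 lower for siR-1, against 39.7% of all genes in either direction. For siR-2, 5 were higher and 5 lower, against 49.6%. Fosb, an AP-1 subunit, fell by 1.34 on the log2 scale with siR-2 and stood at -0.78 with siR-1, past the adjusted p alone. Etv5, an ETS factor, fell by 1.21 with siR-1 and stood at -0.55 with siR-2. With TGF-β in Scrambled CFs, 1 of 11 was called higher, against 12.5% of all genes, and 4 lower, against 9.02%.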
